A study of Mus musculus with 30 samples.

Results

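Blood vessels run through the kidney and the pancreas, and their inner lining is made of endothelial cells, which express a characteristic set of genes. A list of 32 such genes was followed in 2 tables of gene expression, with 19468 gene rows for kidney and 19685 for pancreas. The genes were taken by name, and all 32 were found in both tables. They are 11 receptors and their close partners, 9 junction, adhesion and surface proteins, 7 secreted, luminal or vessel-bed genes and 5 transcription factors.

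The tissues came from C57BL/6 mice, with 5 mice in each of 6 groups and 30 RNA libraries in all. Every animal drank doxycycline at 0.2 mg/ml for 7 days, and no group without the drug was used here. In kidney the groups were i4F, i4F Ink4a/Arf KO and i4F p53 KO. The i4F cassette switches on the 4 reprogramming factors Oct4, Sox2, Klf4 and Myc when doxycycline is given, and the KO groups also lack the tumour suppressors of the Ink4a/Arf locus, or p53. In pancreas the groups were i4F, i4F Ink4a/Arf KO and one labelled p53 KO, with no i4F in that label. Libraries were made from whole tissue, so fewer endothelial cells and less RNA per endothelial cell cannot be told apart. Nothing in the labels says whether animals of a group were littermates.

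Values are FPKM, read fragments per transcript length and per library total, so each level is relative to the other RNA of its library. A second scale divided each library by its median-of-ratios factor, which brings the median gene of all libraries of a tissue to 1 level, and these values are called scaled FPKM. The factors lay between 0.891 and 1.16 in kidney. In pancreas they were 1.31 to 3.93 for p53 KO, against 0.463 to 1.00 for i4F and 0.496 to 0.641 for i4F Ink4a/Arf KO. Log2 differences are differences of mean log2(FPKM + 1) from limma with their standard error, and a gene was called at a Benjamini-Hochberg adjusted p under 0.05 over all tested genes. Of the targeted genes, Trp53 was 4.90 to 10.2 FPKM in kidney p53 KO and 14.8 to 20.3 in kidney i4F. In pancreas it was 6.65 to 24.8 FPKM in the p53 KO group and 1.64 to 6.99 in i4F, and scaled 4.17 to 6.66 and 3.55 to 6.96, so this transcript was not lower under that label on either scale. For pancreas, p53 KO means below the libraries labelled p53 KO, without a check of the deletion from these values. Cdkn2a, the Ink4a/Arf gene, was 0 to 0.0663 FPKM in kidney i4F Ink4a/Arf KO and 0 to 0.0782 in kidney i4F, with 0 to 0.112 and 0 to 0.318 in pancreas. Pou5f1, which encodes Oct4, was 24.6 to 98.2 FPKM in pancreas p53 KO and 0 to 1.14 in i4F. Xist, a female-specific RNA, was over 1 FPKM in 2 i4F and 1 i4F Ink4a/Arf KO libraries of kidney and in 3 and 1 of pancreas, and in no p53 KO library.

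Endothelial cells respond to VEGF through the receptor tyrosine kinases Kdr (VEGFR2), Flt1 (VEGFR1) and Flt4 (VEGFR3), and to angiopoietins through Tek (Tie2), with Tie1 as its partner. They are held together by Cdh5 (VE-cadherin) and Pecam1, and ETS factors such as Erg and Fli1 and SOX factors such as Sox17 and Sox18 drive their gene programme. Capillaries whose pores are closed by thin diaphragms carry Plvap, the diaphragm protein. Lyve1 marks lymphatic endothelium, and some tissue macrophages also carry it.

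Promoters are shown because ETS and SOX factors, themselves members here, act on endothelial promoters. RefSeq start sites on build GRCm38.p6 were matched for 14 of the 32 genes, at 18 start sites, and the 250 bases before each were searched on both strands for CAGGAA, an ETS-type motif that reads TTCCTG on the other strand, and AACAAT, a SOX-type motif that reads ATTGTT there. CAGGAA was present in 10 of the 18 windows, belonging to 9 genes, against 25.7% of 32851 mouse windows of that length. AACAAT was present in 3 windows against 9.42% of all. The windows of Kdr (chr5:75978456-75978705, minus strand), Flt1 (chr5:147726012-147726261, minus), Clec14a (chr12:58269259-58269508, minus) and Ehd3 (chr17:73804591-73804840, plus) are those of members called in pancreas p53 KO against i4F on the scaled values that have an entry, and Tek (chr4:94739039-94739288, plus) is a member with both motifs that was not called in that comparison. Sequences run 5′ to 3′ with the last base next to the start site, and capitals mark motif matches.
Kdr: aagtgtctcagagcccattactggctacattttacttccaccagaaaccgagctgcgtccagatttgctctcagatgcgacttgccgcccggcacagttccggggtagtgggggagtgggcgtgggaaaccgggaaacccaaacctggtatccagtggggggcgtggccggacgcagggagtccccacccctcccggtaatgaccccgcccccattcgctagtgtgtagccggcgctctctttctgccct
Flt1: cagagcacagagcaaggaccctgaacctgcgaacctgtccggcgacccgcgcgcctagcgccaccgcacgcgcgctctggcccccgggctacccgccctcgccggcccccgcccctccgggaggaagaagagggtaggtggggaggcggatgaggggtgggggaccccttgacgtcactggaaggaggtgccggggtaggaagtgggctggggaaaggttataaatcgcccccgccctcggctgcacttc
Clec14a: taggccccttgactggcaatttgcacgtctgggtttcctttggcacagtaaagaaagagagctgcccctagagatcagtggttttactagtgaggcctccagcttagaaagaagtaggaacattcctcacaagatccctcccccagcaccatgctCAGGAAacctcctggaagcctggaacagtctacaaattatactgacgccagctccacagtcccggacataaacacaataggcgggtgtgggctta
Ehd3: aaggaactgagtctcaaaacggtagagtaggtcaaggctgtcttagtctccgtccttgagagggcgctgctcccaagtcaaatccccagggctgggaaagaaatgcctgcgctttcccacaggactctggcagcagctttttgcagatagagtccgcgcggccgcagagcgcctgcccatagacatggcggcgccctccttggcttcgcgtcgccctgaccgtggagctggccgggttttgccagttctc
Tek: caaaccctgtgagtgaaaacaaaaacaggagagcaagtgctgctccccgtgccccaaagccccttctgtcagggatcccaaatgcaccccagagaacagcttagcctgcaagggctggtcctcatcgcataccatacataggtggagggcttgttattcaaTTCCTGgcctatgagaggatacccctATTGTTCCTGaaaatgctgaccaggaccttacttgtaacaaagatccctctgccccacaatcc
Neither motif occurs in the Kdr, Flt1 and Ehd3 windows. Clec14a holds CAGGAA, and Tek holds TTCCTG at 2 places, one of which overlaps ATTGTT. A match describes letters and not a bound site.

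In kidney i4F libraries the members spanned from Plvap at 108 ± 15.9 FPKM (SD, n = 5) to Lyve1 at 0.266 ± 0.285. FPKM are per length, so levels can be compared between genes. Behind Plvap came Emcn, a mucin-like surface protein of capillaries, at 47.2 ± 7.13, the TGF-beta coreceptor Eng at 44.7 ± 16.3, the secreted matrix protein Egfl7 at 30.9 ± 6.50 and Pecam1 at 21.8 ± 7.97. Of the 31 neighbours in this order, 2 had ranges that did not overlap, Plvap above Emcn and Sox7 above Vwf. Sox18 was the most abundant of the transcription factors, at 13.2 ± 1.03 FPKM, with Erg at 3.13 ± 0.597, Fli1 at 2.56 ± 0.632, Sox17 at 2.33 ± 0.234 and Sox7 at 1.22 ± 0.219.

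Plvap also led in pancreas i4F libraries, at 22.7 ± 7.03 FPKM. Cd34, a sialomucin of capillary endothelium, followed at 7.88 ± 3.87, then Eng at 6.95 ± 1.98 and Pecam1 at 6.83 ± 3.51. Plvap above Cd34 was the only pair of the 31 neighbours with separate ranges. The 32 genes summed to 358 to 593 FPKM in kidney i4F and to 68.2 to 158 in pancreas i4F. The tables were made separately, so this gap was not tested. In the same pancreas libraries 12 acinar cell genes, which encode secreted enzymes, summed to 241000 to 406800 FPKM, with 2 to 4 of them listed at 0.

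No kidney member passed the test in any of the 3 comparisons of genotypes. Of the 32 genes, 30 reached 1 FPKM in at least 5 of the 15 libraries and were tested, and Vwf and Lyve1 did not. Between i4F Ink4a/Arf KO and i4F limma called 0 of 30 members and 0 of 12431 genes (0%) on both scales, with 398 genes at an unadjusted p under 0.05 as deposited and 392 scaled. The members' scaled differences there ran from -0.42 (Gpihbp1) to 0.20 (Sox18). For i4F p53 KO minus i4F limma called 0 of 30 members, and 32 genes (0.257%) as deposited and 62 (0.499%) scaled, while 3 and 4 members had an unadjusted p under 0.05. For i4F p53 KO minus i4F Ink4a/Arf KO, a comparison that shares the p53 KO libraries, it called 0 of 30 members beside 0.265% and 0.539% of all genes, and 1 and 6 members had an unadjusted p under 0.05.

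Most members had lower means in p53 KO kidney without being called, fewer of them in male libraries alone or with an Xist covariate. On the scaled values 24 of 30 had a negative log2 difference from i4F, with a median of -0.14 where the median of all tested genes was -0.0021. The p53 KO means include replicate 5, where 23 of the 32 members lay below the 4 others of its group. The part of that library in this count was not tested. Icam2, an adhesion protein on the luminal surface, was 9.04, 7.98, 9.34, 10.7 and 10.9 scaled FPKM in i4F and 5.84, 7.76, 6.96, 5.76 and 5.68 in i4F p53 KO. Every p53 KO library lay below every i4F library on that scale, and i4F Ink4a/Arf KO spanned 6.30 to 10.3. The log2 difference was -0.52 ± 0.12 with a limma adjusted p of 0.0739. Without p53 KO replicate 2 it was -0.58 with an adjusted p of 0.0326.

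Emcn was 42.9, 45.9, 47.0, 53.8 and 46.2 scaled FPKM in kidney i4F and 29.1, 39.2, 40.1, 37.7 and 23.1 in i4F p53 KO, again with no overlap. Its log2 difference was -0.49 ± 0.13 with a limma adjusted p of 0.118. Icam2 and Emcn were the 2 of 30 tested members whose p53 KO libraries all lay below i4F on the scaled values, beside 1.38% of all tested genes. As deposited only Emcn did, beside 1.65%, and Icam2 was 7.75 to 11.7 FPKM in i4F and 5.32 to 7.93 in p53 KO. Aplnr, the receptor of apelin peptides, had the lowest difference at -0.76 ± 0.25 (adjusted p 0.19), and its values of 2.2 to 3.97 in i4F and 0.269 to 2.67 in p53 KO overlap. Esam, a tight-junction protein, gave -0.43 ± 0.19 (adjusted p 0.32). Plvap gave -0.13 ± 0.14, Tie1 -0.04 ± 0.12, Ramp2, a partner of the adrenomedullin receptor, -0.0020 ± 0.16 and Sox18 0.25 ± 0.22.

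The sex of the animals moved with this comparison, since Xist was 26.6 and 20.9 FPKM in i4F replicates 4 and 5 and at most 1 in every p53 KO library. Replicates 4 and 5 also had the highest scaled value of i4F in 16 and 7 of the 32 members. Sex and the high values of these libraries cannot be told apart here. In male libraries alone 19 of 30 members had a negative scaled difference from i4F, with a median of -0.04, and none was called, beside 0.272% of all genes. With Xist as a covariate 17 of 30 were negative, with a median of -0.05, and none was called, beside 4.09%. Icam2 gave -0.41 (adjusted p 0.111) in male libraries and -0.39 (adjusted p 0.0515) with the covariate. Emcn gave -0.43 (adjusted p 0.161) and -0.42 (adjusted p 0.0922), and Aplnr -0.63 (adjusted p 0.24) and -0.63 (adjusted p 0.165).

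**Figure D1:**
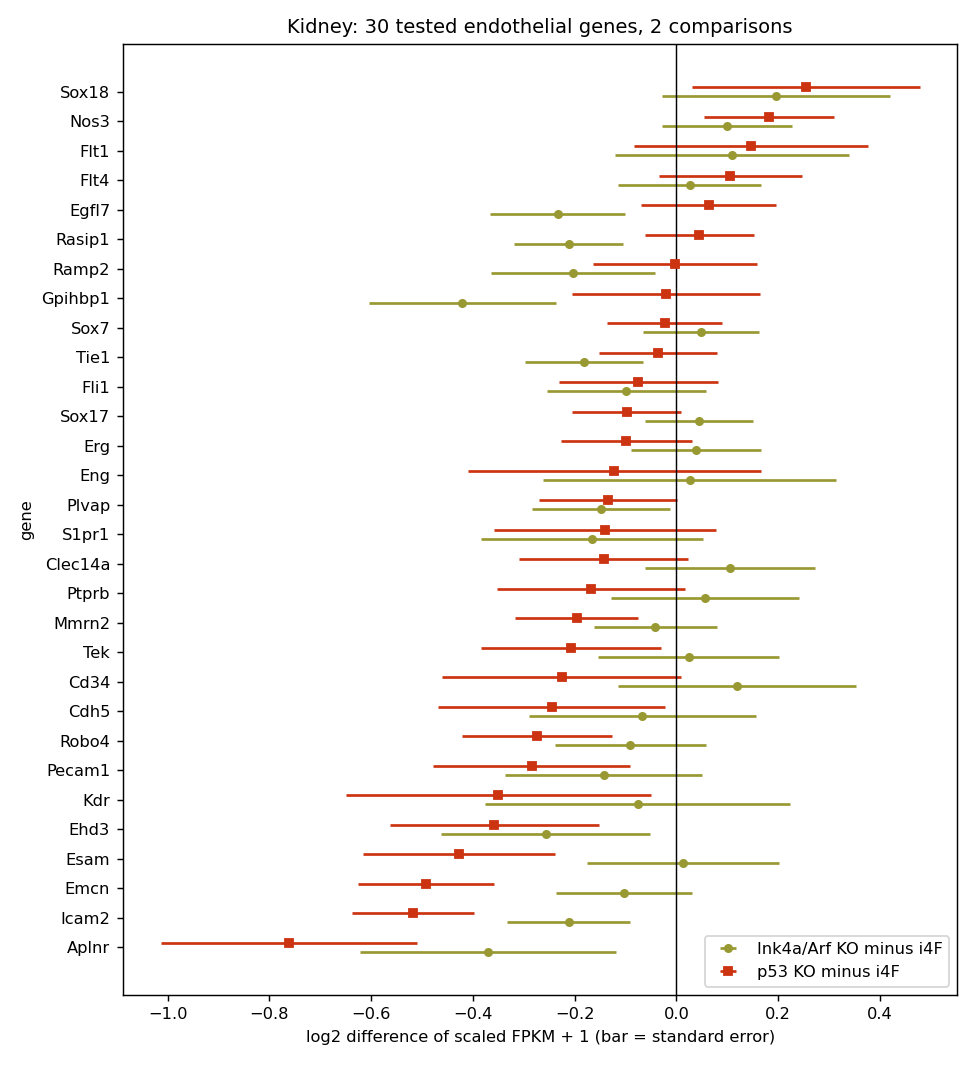
Log2 differences of scaled FPKM + 1 in kidney for the 30 tested endothelial genes, for i4F Ink4a/Arf KO minus i4F and i4F p53 KO minus i4F (circles and squares in that order; bars, standard errors). The p53 KO differences run from -0.76 for Aplnr to 0.25 for Sox18, and no gene was called in either comparison.

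One p53 KO kidney library, replicate 5, was low for most members. On the scaled values 23 of the 32 were below all 4 other p53 KO libraries there, and 11 were under 50% of the median of those 4. Kdr was 3.59 scaled FPKM against 8.52, 15.8, 18.0 and 13.0 in replicates 1 to 4, which is 25.0% of their median. Eng stood at 32.2%, Flt1 at 33.6%, Ehd3, an endocytic ATPase of glomerular endothelium, at 38.8% and Cdh5 at 39.1%. The low values did not run through the whole list. Egfl7 was 42.3 scaled FPKM against 26.0 to 33.2 in the others (140.0% of their median), the nitric oxide synthase Nos3 stood at 128% and Ramp2 at 122%. Plvap (90.2%), Tie1 (97.3%) and Rasip1, a Rap1 effector of lumen formation (99.3%), were near the others.

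**Figure D2:**
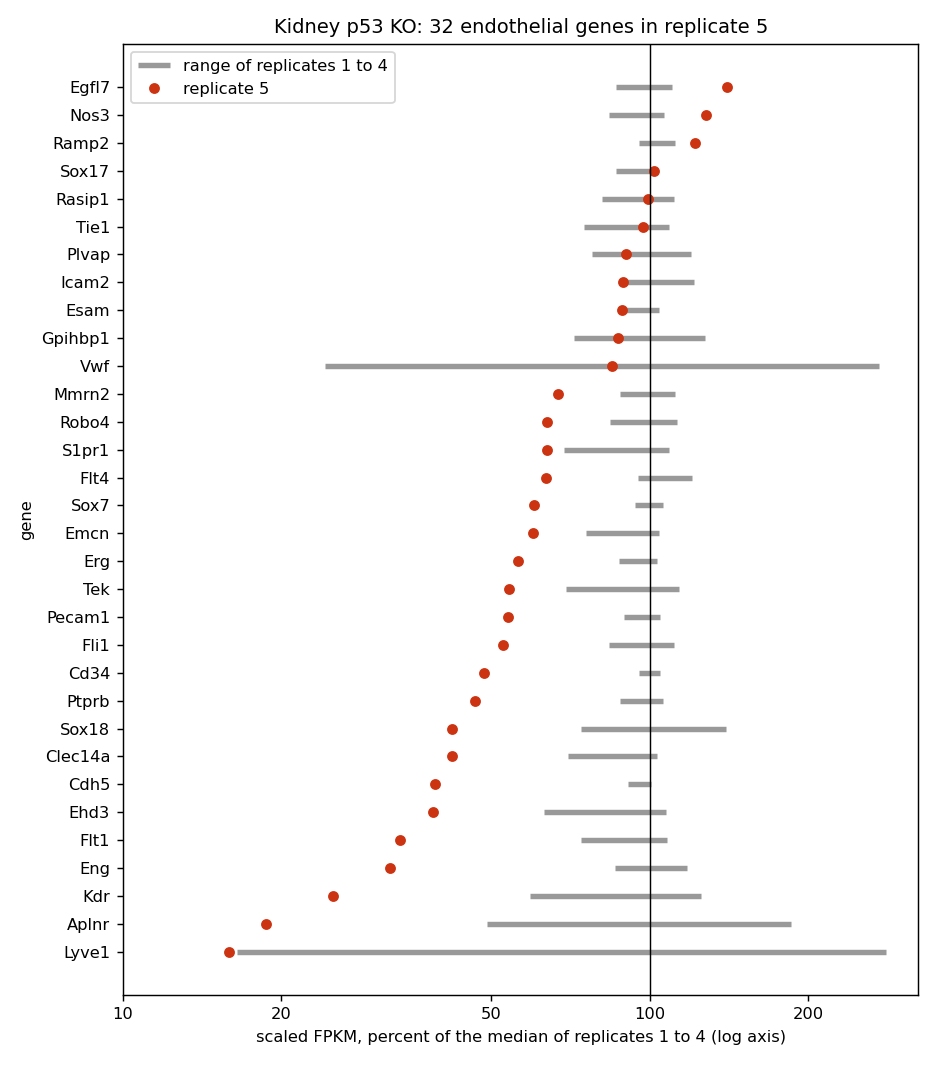
Scaled FPKM of the 32 endothelial genes in kidney i4F p53 KO replicate 5 (points) as a percent of the median of replicates 1 to 4, whose range is the grey bar (log axis). Kdr lies at 25.0%, Eng at 32.2% and Egfl7 at 140.0%.

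Marker sums of some other cells were also low in that library. The 14 leukocyte and platelet genes summed to 52.2 scaled FPKM against 91.5 to 136 in the other 4, the 7 fibroblast genes to 33.7 against 65.4 to 142 and the 12 mural cell genes to 64.6 against 115 to 369. Others were not, and the 6 podocyte genes were highest there, at 66.2 against 42.1 to 52.0, with the slit-diaphragm gene Nphs1 at 8.62 against 4.07 to 4.85. The part of these cells in the member values was not tested. Kidney libraries also differed in pancreatic RNA. The 12 acinar genes summed to 1667 to 2225 FPKM in p53 KO replicates 2, 3 and 4 and to 1989 in i4F replicate 5, and to 36.8 to 381 in the other 11. Leaving out these 4 libraries leaves p53 KO only replicates 1 and 5, and limma then called 4 members lower against i4F, beside 2.22% of all genes. They were Aplnr at -1.26 (adjusted p 0.0372), Kdr at -1.19 (0.0491), Ehd3 at -0.90 (0.0398) and Emcn at -0.84 (0.0197). In the comparison with i4F Ink4a/Arf KO the same step called Kdr at -1.07 (adjusted p 0.0405) and Emcn at -0.73 (0.0192), beside 6.02%. Replicate 5 is 1 of the 2 p53 KO libraries in those fits.

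Within the other kidney groups single libraries also stood high or low across the list. Of the 32 members, i4F replicate 4 had the highest scaled value in 16 and replicate 3 the lowest in 18. In i4F Ink4a/Arf KO, replicate 1 was highest in 22 and replicate 4 lowest in 20. Replicate 1 also had the highest leukocyte and platelet sum of its group, 237 scaled FPKM against 72.1 to 95.7. Its part in the member values was not tested.

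Pancreas members were not called between i4F Ink4a/Arf KO and i4F, and nearly all were higher in p53 KO as deposited, as were most genes. Of the 32 members 30 were tested, and Flt4 and Sox17 were not. Nos3 and Sox7 reached 1 FPKM in p53 KO libraries only, and Aplnr, Ehd3, Fli1 and Erg in those and 1 i4F library. Members that passed through the group where they are high had to differ as deposited, so counts and medians over the 30 are descriptions and support no direction. Between i4F Ink4a/Arf KO and i4F limma called 0 of 30 members and 0 of 10781 genes (0%) on both scales, with 36 genes at an unadjusted p under 0.05 as deposited and 515 scaled. The members' scaled log2 differences ran from -0.31 (Cd34) to 0.45 (Lyve1).

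As deposited, 29 of 30 members were higher in p53 KO than in i4F, where 93.4% of all genes were called and 91.2% called higher. The members' median log2 difference was 1.42 and that of all genes 1.58. Clec14a, a surface lectin of vessel sprouting, was the exception at 0.29 ± 0.19 with an adjusted p of 0.161. In the comparison with i4F Ink4a/Arf KO, which shares the p53 KO libraries, all 30 were higher, with a median of 1.53 beside 1.66 for all genes, of which 93.7% were called and 91.7% called higher. The p53 KO libraries all lay above i4F for 13 of 30 members, beside 73% of all genes, and all above i4F Ink4a/Arf KO for 28, beside 85.6%.

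Acinar transcripts summed to fewer FPKM in most p53 KO libraries than in i4F, where their sum was 241000 to 406800. In replicates 1 to 5 of p53 KO the acinar sum was 35070, 78090, 176500, 289000 and 4775 FPKM. The library at 289000 lies within the i4F range. In the same order of p53 KO replicates the members' sum was 499, 431, 222, 156 and 493 FPKM. In i4F the members summed to 68.2 to 158 FPKM as deposited. On the scaled values the members summed to 105 to 132 in p53 KO, against 119 to 184 for i4F and 113 to 158 for i4F Ink4a/Arf KO. On that scale the p53 KO range overlaps both others.

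**Figure D3:**
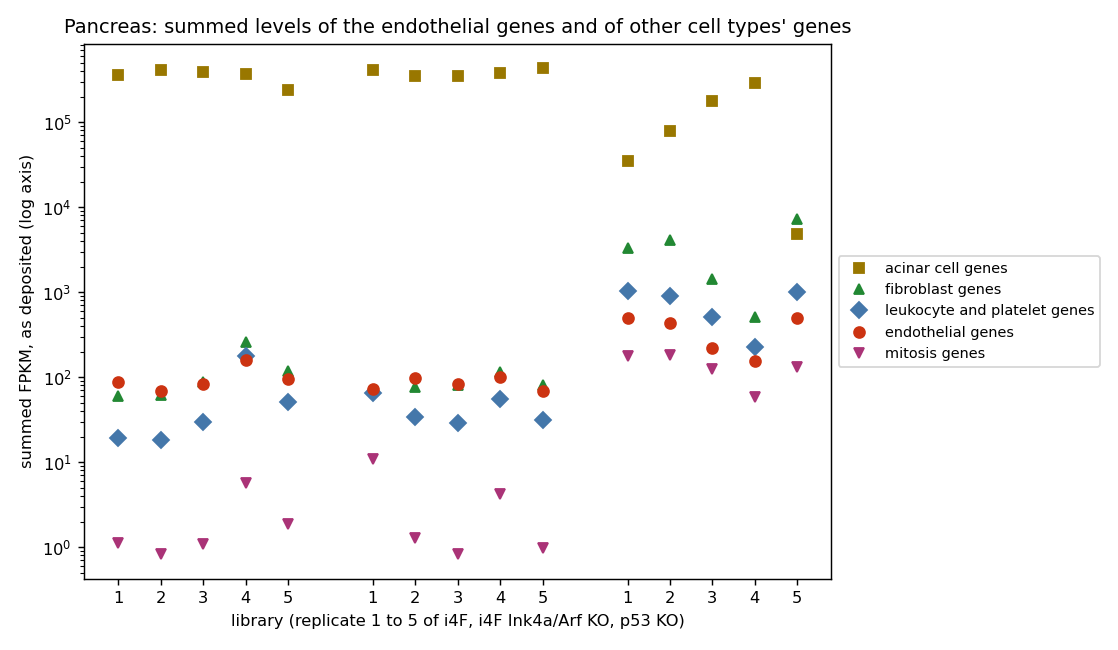
Summed FPKM as deposited (log axis) for the 32 endothelial genes and 4 lists of other genes in each pancreas library, with replicates 1 to 5 of the 3 groups from left to right. The endothelial sum is 68.2 to 158 in i4F and 156 to 499 in p53 KO, and the acinar sum is lowest in p53 KO replicate 5.

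On the scaled values, relative to the median gene, the members split. Limma called 12 of 30 against i4F, 4 higher and 8 lower, where it called 66% of all genes, 34.9% higher and 31.2% lower. The share of members called is below that of all genes. Relative to i4F Ink4a/Arf KO it called 13 of 30, 4 higher and 9 lower, beside 67.7% of all genes (34.7% higher, 33% lower). Of those higher against i4F, Aplnr, Ehd3 and Nos3 passed the filter through p53 KO libraries, as did Fli1, which was called against i4F Ink4a/Arf KO. At 1 FPKM in 11 libraries, which leaves these genes out, 8 of 22 members were called against i4F, 1 higher and 7 lower, beside 66.8% of all genes, and 9 against i4F Ink4a/Arf KO, 1 higher and 8 lower, beside 68.5%. By role, against i4F, 3 receptors fell and 1 rose of 10 tested, 3 junction and surface genes fell of 9, 3 secreted or vessel-bed genes were called higher (Lyve1, Ehd3 and, close to the threshold, Nos3) and 2 lower of 7, and 0 of 4 transcription factors were called. The groups did not overlap for Kdr, Flt1, Ptprb, Clec14a, Gpihbp1 and Plvap, all below i4F, beside 21.1% of all genes, nor for Aplnr, above it, beside 24.2%.

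**Figure D4:**
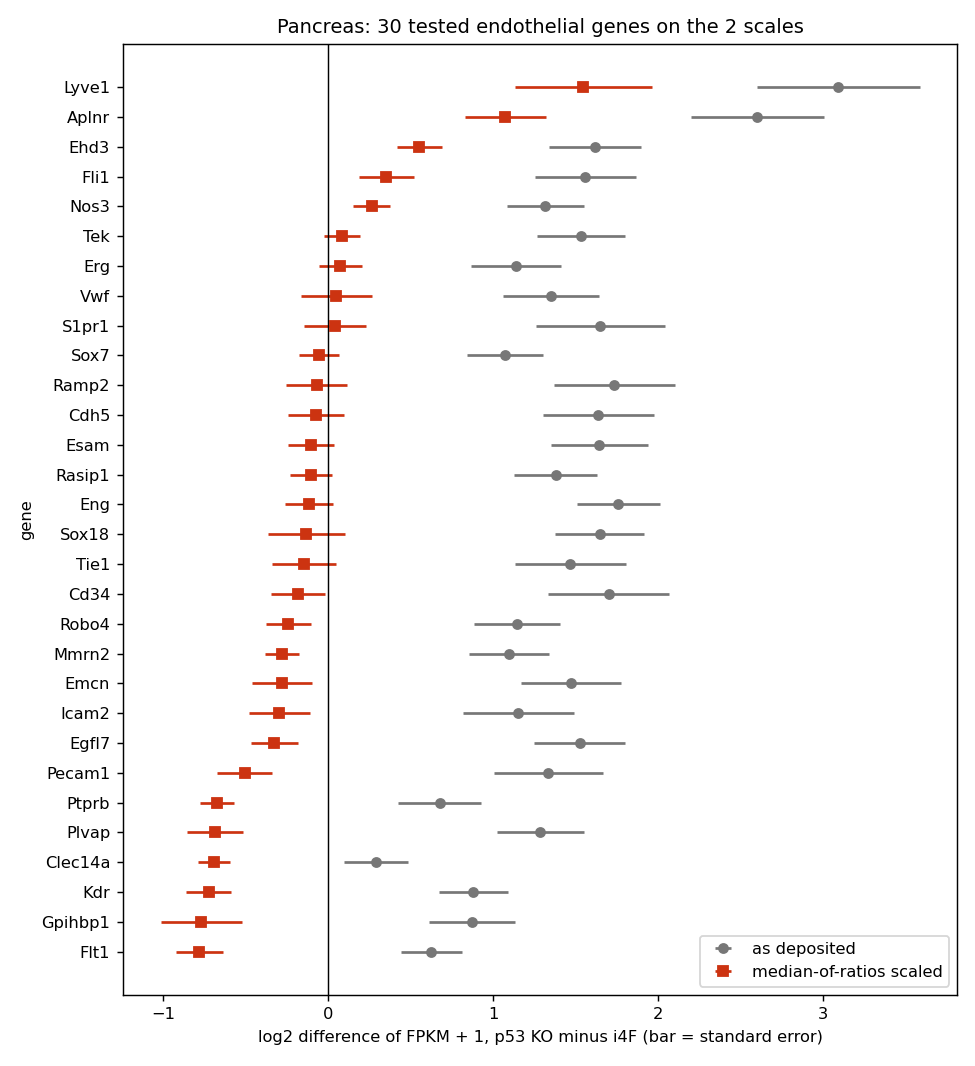
Log2 differences of p53 KO minus i4F in pancreas for the 30 tested endothelial genes, as deposited (circles) and median-of-ratios scaled (squares), with standard errors. As deposited they run from 0.29 for Clec14a to 3.09 for Lyve1, and scaled from -0.78 for Flt1 to 1.55 for Lyve1.

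Among the receptors, both VEGF receptors that could be tested fell relative to the median gene. Kdr (chromosome 5, 75932827 to 75978458, mm10) was 2.93, 2.25, 2.83, 3.22 and 3.48 FPKM as deposited in pancreas i4F and 7.02, 7.43, 5.33, 3.80 and 8.54 in p53 KO. On the scaled values it was 6.16, 4.86, 4.30, 3.21 and 4.37 in i4F and 1.79, 2.23, 2.54, 2.91 and 2.29 in p53 KO, while i4F Ink4a/Arf KO lay at 3.69, 4.78, 5.81, 4.41 and 4.02. Every p53 KO library was above i4F on the first scale and below both other groups on the second. The log2 difference from i4F was 0.88 ± 0.21 as deposited (adjusted p 0.000694) and -0.72 ± 0.14 scaled (0.00034).

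Flt1 (chromosome 5, 147561604 to 147726011), the VEGF receptor that also acts as a decoy, was 4.27, 3.21, 2.89, 2.49 and 2.91 scaled FPKM in i4F and 0.961, 1.16, 1.71, 2.10 and 1.22 in p53 KO, with i4F Ink4a/Arf KO at 2.6, 3.77, 3.62, 3.31 and 2.59. No p53 KO library reached another group. Its scaled log2 difference from i4F was -0.78 ± 0.14 (adjusted p 0.000214) and from i4F Ink4a/Arf KO -0.79 ± 0.14 (0.000174), against 0.63 and 0.70 as deposited. Of the members' summed FPKM, a share that needs no scaling between libraries, Flt1 took 2.16% ± 0.339 (SD, n = 5) in i4F and 1.19% ± 0.458 in p53 KO. Kdr took 3.15% ± 0.639 and 1.94% ± 0.455.

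Flt4, the VEGF receptor of lymphatic vessels, was below 1 FPKM in every i4F and i4F Ink4a/Arf KO library and was not tested. As deposited it was 0.306 to 0.431 FPKM in i4F and 9.70, 7.11, 1.64, 0.821 and 4.52 in p53 KO, with no overlap, and scaled 0.348 to 0.684 against 0.629 to 2.47, with overlap. Its share of the members' sum was 0.380% ± 0.113 in i4F and 1.16% ± 0.612 in p53 KO. Ptprb (VE-PTP), a phosphatase that acts on Tek and VE-cadherin, was 1.97 to 3.03 scaled FPKM in i4F and 0.807 to 1.42 in p53 KO, with no overlap. It fell by 0.67 ± 0.10 against i4F (adjusted p 5.44e-05).

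Tek and Tie1 were not called on the scaled values. Tek was 1.77, 2.30, 1.66, 1.38 and 1.5 scaled FPKM in i4F and 2.13, 2.27, 1.80, 1.43 and 1.80 in p53 KO, overlapping ranges with a difference of 0.09 ± 0.11 (adjusted p 0.495). Tie1 gave -0.15 ± 0.19 (0.518), Eng -0.12 ± 0.14 (0.492), Ramp2 -0.07 ± 0.19 (0.759), the sphingosine-1-phosphate receptor S1pr1 0.04 ± 0.19 (0.854) and Robo4, a guidance receptor that stabilises vessels, -0.24 ± 0.14 (0.132). As deposited each of these 6 was higher, by 1.15 (Robo4) to 1.76 (Eng).

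Aplnr was the receptor that rose. As deposited it was 0.900, 0.489, 0.617, 2.09 and 0.873 FPKM in i4F and 10.6, 21.3, 5.36, 3.53 and 28.5 in p53 KO, with i4F Ink4a/Arf KO at 0.421 to 0.921. On the scaled values p53 KO was 2.69, 6.40, 2.55, 2.70 and 7.65, with replicates 2 and 5 highest, while i4F spanned 0.938 to 2.08 and i4F Ink4a/Arf KO 0.734 to 1.44. The p53 KO libraries were above both other groups on both scales. The scaled log2 differences were 1.08 ± 0.24 against i4F (adjusted p 0.0013) and 1.31 ± 0.24 against i4F Ink4a/Arf KO (0.000256). It reached 1 FPKM in the 5 p53 KO libraries and 1 i4F library, and with no filter the adjusted p values were 0.00327 and 0.000791. The gene lies on chromosome 2, 85136225 to 85139923. In kidney its uncalled p53 KO difference was -0.76, and the difference between the tissues was not tested.

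**Figure D5:**
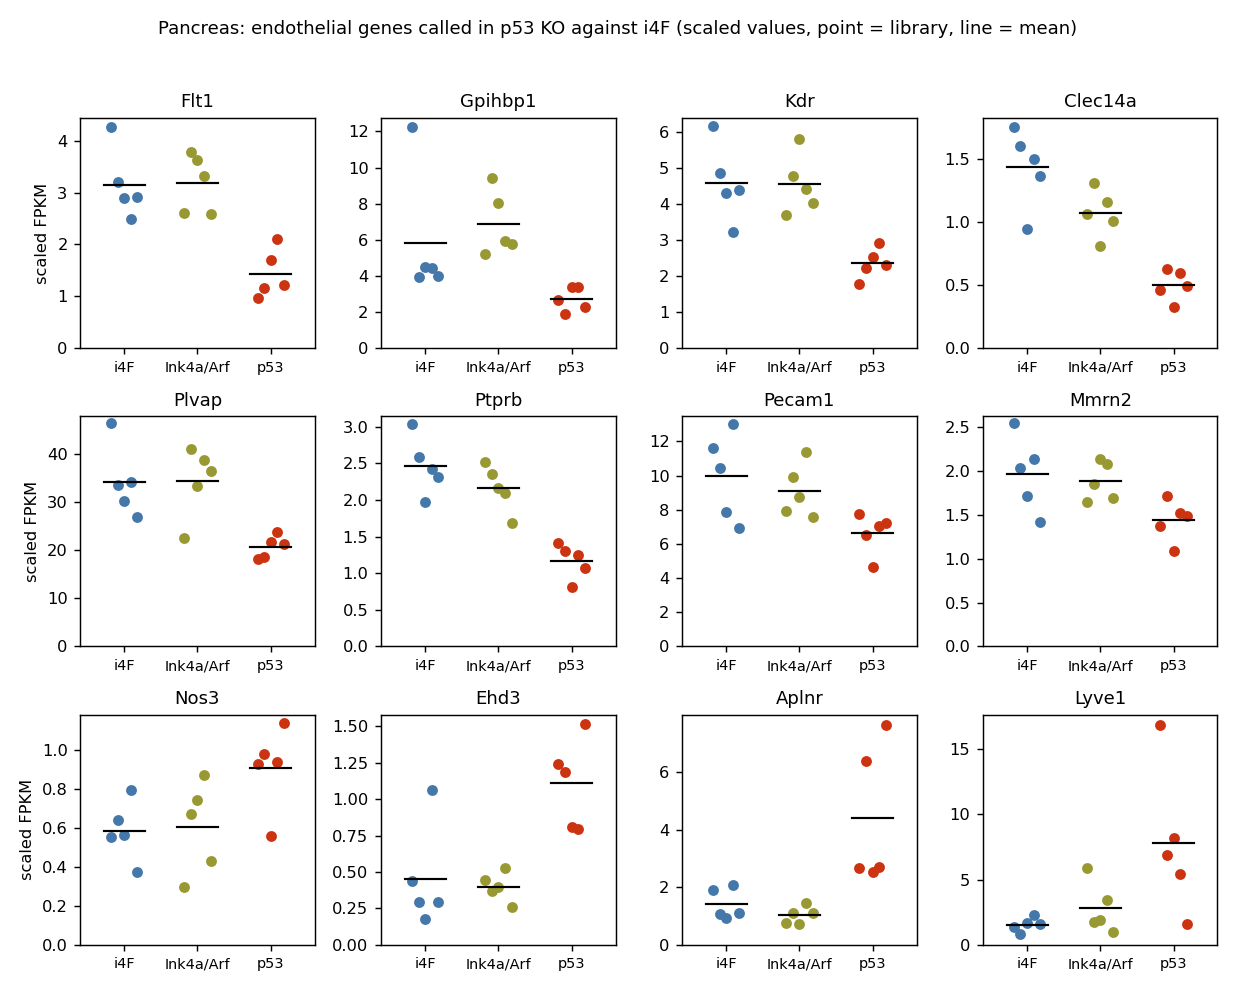
Scaled FPKM in the 15 pancreas libraries for the 12 endothelial genes called in p53 KO against i4F (points, libraries; lines, means of 5; y axes start at 0). Kdr in p53 KO lies between 1.79 and 2.91, below all i4F libraries, and Aplnr between 2.55 and 7.65, above them.

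Of the 9 junction, adhesion and surface genes 3 fell relative to the median gene. Clec14a (chromosome 12, 58264720 to 58269290) was 0.945 to 1.76 scaled FPKM in i4F and 0.322 to 0.627 in p53 KO, below i4F Ink4a/Arf KO (0.814 to 1.31) too. Its scaled difference from i4F was -0.69 ± 0.10 (adjusted p 2.9e-05), and its share of the members' sum was 0.980% ± 0.158 in i4F and 0.406% ± 0.0830 in p53 KO. Pecam1, on endothelium and also on platelets and leukocytes, was 11.6, 10.5, 7.89, 13.0 and 6.93 scaled FPKM in i4F and 7.77, 6.52, 4.67, 7.03 and 7.24 in p53 KO, overlapping groups with a difference of -0.51 ± 0.17 (0.0148). Its difference from i4F Ink4a/Arf KO was -0.41 ± 0.17 (0.0421), not called without i4F Ink4a/Arf KO replicate 2, 3 or 4 (adjusted p 0.0826, 0.0592 and 0.108) or p53 KO replicate 2 or 3 (0.0715 and 0.122), nor with no filter (0.0607).

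Mmrn2, an extracellular matrix ligand of Clec14a, gave -0.28 ± 0.10 (adjusted p 0.0279). That call was lost without p53 KO replicate 1 or 3 (adjusted p 0.0526 and 0.0788) or i4F replicate 1, 2 or 4 (0.0763, 0.0511 and 0.0543). Against i4F Ink4a/Arf KO it gave -0.24 ± 0.10 (0.0488), not called without i4F Ink4a/Arf KO replicate 2, 3 or 4 (adjusted p 0.0689, 0.106 and 0.101) or p53 KO replicate 1, 3, 4 or 5 (0.0895, 0.133, 0.0571 and 0.0668) or i4F replicate 2, 3 or 4 (0.0524, 0.0526 and 0.0525), nor with no filter (0.069) or a replicate block (0.0665). The other 6 were not called, namely Cdh5 at -0.07 ± 0.17, Esam at -0.10 ± 0.14, Icam2 at -0.29 ± 0.19, Cd34 at -0.18 ± 0.16, Emcn at -0.28 ± 0.18 and Rasip1 at -0.11 ± 0.13. Cdh5, the central junction gene, was 2.84 to 5.42 scaled FPKM in i4F and 2.76 to 5.55 in p53 KO, ranges that overlap.

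Secreted, luminal and vessel-bed genes went both ways. Plvap (chromosome 8, 71497765 to 71511752), the most abundant member, was 46.5, 33.6, 30.2, 34.3 and 27.0 scaled FPKM in i4F and 18.3, 18.5, 21.8, 23.8 and 21.3 in p53 KO, with i4F Ink4a/Arf KO at 22.5, 41.1, 33.5, 38.9 and 36.5. The p53 KO libraries lay below all of i4F and overlapped 1 i4F Ink4a/Arf KO library. The difference from i4F was -0.68 ± 0.17 (adjusted p 0.00232). Plvap's share of the members' sum was 23.3% ± 1.33 in i4F and 17.1% ± 3.01 in p53 KO.

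Gpihbp1, which carries lipoprotein lipase to the capillary lumen, was 12.2, 3.93, 4.50, 4.41 and 3.98 scaled FPKM in i4F, with replicate 1 far above the others, and 1.91 to 3.40 in p53 KO. Its difference was -0.77 ± 0.25 against i4F (adjusted p 0.0125) and -1.07 ± 0.25 against i4F Ink4a/Arf KO (0.00132), whose libraries were 5.24 to 9.41. Egfl7 fell by 0.40 ± 0.14 against i4F Ink4a/Arf KO (0.0212), a call lost without i4F Ink4a/Arf KO replicate 4 (adjusted p 0.0613) or p53 KO replicate 3 (0.0563). Against i4F it gave -0.33 ± 0.14 (0.0543).

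Lyve1 (chromosome 7, 110850607 to 110863239) had the highest fitted difference of the list. It was 1.35, 0.857, 1.66, 2.29 and 1.62 scaled FPKM in i4F and 16.8, 6.86, 8.17, 5.42 and 1.60 in p53 KO, with i4F Ink4a/Arf KO at 5.92, 1.75, 1.88, 3.45 and 0.965. In p53 KO replicate 1 was high and replicate 5 within the i4F range, so the groups overlap. The difference from i4F was 1.55 ± 0.42 (adjusted p 0.0043). Relative to i4F Ink4a/Arf KO it was 1.10 ± 0.42 (0.0293), and there the call was lost without i4F Ink4a/Arf KO replicate 2, 3 or 5 (adjusted p 0.0626, 0.0602 and 0.0818) or p53 KO replicate 1, 2 or 3 (0.0854, 0.0532 and 0.0607), with no filter (0.0524) and in a fit of only these 2 groups (0.062).

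Lymphatic and leukocyte markers were measured in the same libraries. Of 3 tested lymphatic genes Pdpn rose by 2.11 ± 0.21, while Ccl21a (0.52 ± 0.49) and Itga9 (0.06 ± 0.11) were not called, and Prox1, the defining factor of lymphatic endothelium, was too low to be tested in pancreas. All 11 tested leukocyte and platelet genes rose relative to the median gene, beside 34.9% of all genes called higher. Their median was 1.53 beside 0.03 for all genes. Ptprc, one of them, was 0.147 to 7.19 FPKM as deposited in i4F and 3.09 to 20.2 in p53 KO. Scaled, it was 0.318 to 7.17 in i4F and 2.37 to 5.14 in p53 KO, a range inside that of i4F. Genes this low in most i4F libraries passed the filter through p53 KO libraries, so the count and median support no direction. Among them Itgam rose by 2.51 ± 0.25, Cd68 by 2.48 ± 0.27 and Tyrobp by 2.23 ± 0.34. The 14 genes of that list summed to 175 to 272 scaled FPKM in p53 KO and to 39.7 to 179 in i4F. Their part in the values of Lyve1, Pecam1, Cd34, Fli1 and Vwf was not tested.

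Ehd3 was 0.440, 0.295, 0.179, 1.06 and 0.294 scaled FPKM in i4F and 1.24, 1.19, 0.807, 0.798 and 1.51 in p53 KO, where i4F replicate 4 overlaps p53 KO. It rose by 0.55 ± 0.14 (adjusted p 0.00248), and by 0.58 ± 0.14 relative to i4F Ink4a/Arf KO (0.00163), with 0.00449 and 0.00312 when no filter was used. Nos3 gave 0.27 ± 0.11 (0.0487), a call lost without i4F Ink4a/Arf KO replicate 2, 3 or 5 (adjusted p 0.0566, 0.0538 and 0.0522) or i4F replicate 1, 2, 3 or 5 (0.0833, 0.0648, 0.0793 and 0.119). It was also lost with no filter (0.0632), an Xist covariate (0.181), a replicate block (0.0607), robust variances (0.0505) and male libraries alone (0.116), so that 13 of 17 alternatives on this scaling did not call it. Its difference from i4F Ink4a/Arf KO was 0.26 ± 0.11 and not called (0.0552). Vwf, the clotting factor carrier of endothelium and platelets, gave 0.05 ± 0.21 against i4F (0.844). Differences of genes near 1 FPKM depend on the pseudocount. With 0.1 in place of 1, Ehd3 gave 1.28, Nos3 0.56 (no longer called, adjusted p 0.0703), Clec14a -1.35, Ptprb -1.02 and Mmrn2 -0.42.

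No transcription factor was called against i4F on the scaled values. The 4 tested ones gave 0.35 ± 0.16 for Fli1 (adjusted p 0.0694), 0.08 ± 0.13 for Erg, -0.06 ± 0.12 for Sox7 and -0.13 ± 0.23 for Sox18. Fli1 was 0.674, 0.685, 0.452, 1.91 and 0.731 scaled FPKM in i4F and 1.76, 1.61, 1.19, 0.902 and 1.34 in p53 KO. Its high i4F library, replicate 4, also had Ptprc, the leukocyte surface phosphatase CD45, at 7.19 FPKM against 0.147 to 0.911 in the other 4, and Fli1 is expressed in blood cells too. Without that library the Fli1 difference was 0.52 with an adjusted p of 0.00152, and without p53 KO replicate 4 it was 0.42 (0.0387). The p53 KO libraries had Ptprc at 3.09 to 20.2 FPKM, as deposited like the i4F values just given. On the scaled values Ptprc was 2.37 to 5.14 in p53 KO and 7.17 in i4F replicate 4, above every p53 KO library. The other i4F libraries lay at 0.318 to 1.15 on that scale. Leaving out i4F replicate 4 therefore widens the gap in Ptprc between the groups. The part of blood cells in the Fli1 values was not tested. Relative to i4F Ink4a/Arf KO Fli1 rose by 0.53 ± 0.16 (0.00996), a call lost with quantile normalization (0.28, adjusted p 0.0953) and kept with no filter. Fli1 reached 1 FPKM in the 5 p53 KO libraries and 1 i4F library, so it passed the filter through the group where it is high. Sox17 reached 1 FPKM in 1 of the 15 libraries.

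Scaling each library to 6 members, Pecam1, Cdh5, Tie1, Esam, Egfl7 and Eng, compared the others with these endothelial genes. On the median-of-ratios scale Pecam1 was itself called lower against both groups, and Egfl7 against i4F Ink4a/Arf KO. The 6 are therefore not a neutral reference. On that scale 10 members were called against i4F, 5 higher and 5 lower, beside 56.6% of all genes. All 10 are among the 24 tested members that did not set the scale. Kdr gave -0.52 (adjusted p 0.0112), Flt1 -0.60 (0.00445), Ptprb -0.51 (0.00309), Clec14a -0.58 (0.000231), Aplnr 1.27 (4.48e-05) and Lyve1 1.76 (0.00277). Gpihbp1 at -0.55 (0.0508) and Mmrn2 at -0.11 (0.347) were not called there. With quantile normalization Ehd3 gave 0.24 and was not called (0.11), and against i4F Ink4a/Arf KO Ehd3 (0.27, adjusted p 0.0775), Fli1 (0.28, 0.0953) and Pecam1 (-0.33, 0.118) lost their calls too. Male libraries alone, which leave 2 of i4F, gave Kdr -0.99, Flt1 -1.01, Plvap -0.92, Gpihbp1 -1.16 and Aplnr 1.06, all called. The 2 are replicates 1 and 2, and replicate 1 had the highest scaled value of i4F in 17 of 32 members, so the falls there lean on it.

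Ligands of these receptors were measured in the same tissue. In pancreas p53 KO against i4F, 3 of 9 tested ligands rose and 4 fell relative to the median gene. Of all genes 66% were called there, 34.9% higher and 31.2% lower. Vegfb fell by 1.80 ± 0.20 and Vegfa, the main ligand of Kdr, by 0.99 ± 0.19 (adjusted p 0.000355). Angpt1, the activating ligand of Tek, fell by 0.38 ± 0.12 (0.0119). Slit2 rose by 0.91 ± 0.11 and Apln, the ligand of Aplnr, by 0.66 ± 0.22 (0.0178), while Adm gave 0.07 ± 0.16. As deposited the difference of Vegfa was 0.83 ± 0.25 (0.00419) and that of Angpt1 0.86 ± 0.29. Angpt2 and Vegfc did not reach the level to be tested in pancreas.

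Among 12 tested partner receptors and Notch genes 3 rose and 3 fell, beside 34.9% of all genes called higher and 31.2% lower. Notch4, the endothelial Notch receptor, rose by 1.22 ± 0.13, Nrp2 by 1.29 ± 0.15 and Unc5b by 1.63 ± 0.23, while the Notch ligand Dll4 fell by 0.31 ± 0.11 (adjusted p 0.0199). Nrp1 gave -0.21 ± 0.16, Notch1 -0.35 ± 0.16, Calcrl 0.03 ± 0.12 and Acvrl1 -0.10 ± 0.11, and these 4 were not called. Of 17 tested endothelial genes outside the list 9 rose and 3 fell, and the rest were not called. Their median was 0.74, beside 0.03 for all genes and -0.12 for the 30 tested members. The 27 listed ones summed to 27.3 to 85.8 FPKM as deposited in i4F and to 120 to 532 in p53 KO. Low ones could pass the filter through the p53 KO libraries, so this count and the medians support no direction. The genes named here were picked for the smallest p of these 17 and do not stand for the others. Procr, the protein C receptor, rose by 2.29 ± 0.15, Ecscr by 1.59 ± 0.11 and Podxl, a sialomucin also found on other cells, by 1.88 ± 0.20.

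Genes of other cell types were counted in the same comparison, where 34.9% of all genes were called higher and 31.2% lower. Of 9 mural cell genes 3 rose and 2 fell, with Acta2 (2.70 ± 0.43), Tagln (2.30 ± 0.35) and Pdgfrb (0.80 ± 0.19) higher and the pericyte gene Rgs5 (-1.09 ± 0.23) lower. Of 7 fibroblast genes 5 rose and 1 fell, with Col1a1 at 4.31 ± 0.39. All 9 tested mitosis genes rose, Plk1 by 2.42 ± 0.17. The 10 listed ones summed to 0.84 to 5.77 FPKM as deposited in i4F and to 58.7 to 181 in p53 KO. Passing the filter therefore leaned on the p53 KO libraries, where they are high, so this count supports no direction. Acinar genes gave 1 rise and 7 falls of 11, islet genes 4 falls of 6, red cell genes 1 fall of 4, podocyte genes 2 rises and 1 fall of 4, and kidney tubule genes 0 calls of 3. In kidney, against i4F, no gene of any of these lists was called in p53 KO on the scaled values, and Vegfa gave 0.07 ± 0.15, Angpt1 -0.27 ± 0.15, the tight-junction claudin Cldn5 -0.35 ± 0.15 and Prox1 -0.33 ± 0.22. The part of these cells in the member differences was not tested.

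Genes outside the list that tracked the members were ranked by Pearson's r with the mean profile of the 30 tested members over the 15 libraries of a tissue, a description over libraries that share their scaling. In kidney the first 10 were BC068281 (r 0.918), Eltd1, Pid1, Arsa, Bst2, Amotl1, Rcn3, Arhgap31, Ets1 and Cd93 (0.869). In pancreas they were Sncg (r 0.865), Stoml1, Bcas3, Zbtb12, Klhl24, Mr1, Tcf7l1, Pbx2, Tmem50a and Acvrl1 (0.724). No gene stands in both lists of 10.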

How the data were processed

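RNA from whole kidney and pancreas was sequenced with a stranded poly(A) kit, per the labels' protocols. The authors deposited FPKM, 1 table per tissue; the submitters' processing notes name Cufflinks 2.2.1, SAMtools 0.1.19, TopHat2 2.0.10 and Bowtie 1.0.0, without roles, and build mm10. Read counts were not used here, so depth per gene is unknown, and FPKM near 0 are imprecise.

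The test was limma 3.58.1 (R 4.3.3) applied to log2(FPKM + 1), with a trended variance (15 libraries of a tissue, two-sided, Benjamini-Hochberg adjusted p under 0.05). Tested genes reached 1 FPKM in 5 or more libraries, and values were used as deposited and after median-of-ratios scaling. The pipeline was tested on simulated data. The 3 genotypes were compared pairwise within each tissue. Same-numbered replicates are not stated to be paired. P-values treat the mice as independent.

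The 32 genes, their roles and the other gene lists were chosen with earlier results of these data known. All 32 were named, with up to 3 called genes of each other list and a few fixed ligands and partners. Alternatives covered scaling, pseudocount, filters, sex, replicate block, variances and single libraries. For single genes they were run on the scaled values only, which was decided with the values in view. Gene positions are from GENCODE M21 and promoters from RefSeq (GRCm38.p6). Symbols listed in more than 1 row were read from the first.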

Additional observations from a re-analysis of the deposited data

Results flagged for a closer look

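In 13 of 192 gene-by-group sets of 5 scaled values, 1 library stood apart from the other 4 by Dixon's criterion, which chance alone meets in about 1 of 20 sets. Kidney i4F replicate 4 was high for Aplnr (3.97 scaled FPKM against 2.2 to 2.48 in the others) and Egfl7 (37.9 against 28.1 to 30.7) and low for Sox18 (11.4 against 13.3 to 14.1), and kidney i4F replicate 3 was low for Ptprb (3.64 against 5.62 to 6.31). Kidney i4F p53 KO replicate 5 was low for Cdh5 (3.76 against 8.75 to 9.68), Cd34 (6.50 against 12.8 to 14.0) and Sox7 (0.779 against 1.21 to 1.37), and replicate 3 for Sox17 (1.87 against 2.14 to 2.2). Kidney i4F Ink4a/Arf KO replicate 1 was high for Ramp2 (27.9 against 13.4 to 16.0). In pancreas i4F, replicate 1 was high for Gpihbp1 (12.2 against 3.93 to 4.50) and Eng (14.3 against 8.87 to 10.3), and replicate 4 for Fli1 (1.91 against 0.452 to 0.731) and S1pr1 (5.41 against 2.31 to 3.09).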

How the results depend on the processing

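The direction of the pancreas p53 KO results depended on the scaling. A sign change was read as a reversal where either value was called. Without scaling, the log2 differences from i4F that turned from negative to positive were Kdr 0.88, Flt1 0.63, Tie1 1.47, Eng 1.76, Ptprb 0.68, Ramp2 1.74, Robo4 1.15, Pecam1 1.33, Cdh5 1.64, Esam 1.64, Icam2 1.15, Cd34 1.70, Emcn 1.47, Clec14a 0.29, Mmrn2 1.10, Rasip1 1.38, Egfl7 1.53, Gpihbp1 0.87, Plvap 1.29, Sox7 1.07 and Sox18 1.65, and those from i4F Ink4a/Arf KO were Kdr 0.97, Flt1 0.70, Tie1 1.62, Eng 1.86, Ptprb 0.86, Robo4 1.27, Pecam1 1.54, Esam 1.81, Icam2 1.46, Emcn 1.76, Clec14a 0.53, Mmrn2 1.2, Rasip1 1.5, Egfl7 1.57, Gpihbp1 0.70, Plvap 1.41 and Sox18 1.49. With quantile normalization Nos3 against i4F gave -0.0032. Against i4F the count of called members went from 29 as deposited to 12 with median-of-ratios scaling (4 higher, 8 lower), 10 scaled to the endothelial core (5 and 5), 12 with quantile normalization (2 and 10) and 11 of 11 tested at 5 FPKM, and against i4F Ink4a/Arf KO from 30 to 13 (4 and 9), 12 (6 and 6), 11 (2 and 9) and 11. The scaled counts went to 5 (1 higher, 4 lower) at 5 FPKM in both comparisons. Leaving out 1 library gave 25 to 29 and 25 to 30 as deposited and 9 to 13 and 9 to 15 scaled, and 0 to 1 in kidney p53 KO against i4F. When the 4 kidney libraries with Clps above 100 FPKM were left out, a setting added after seeing the data, as was the male-only fit, the scaled kidney p53 KO counts were 4 against i4F and 2 against i4F Ink4a/Arf KO. The cause of these changes was not tested. With a replicate block the scaled pancreas p53 KO counts were 11 and 12, the as-deposited ones 29 and 30, and the kidney ones 0. Same-numbered libraries had a correlation of deviations over 0.1 in 0 to 3 of 5 pairs, at most 0.291. So few pairs cannot settle whether they were paired. Counts not given here stayed within 1.5 times under the other settings run.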
